A study of Chlorocebus sabaeus with 6 samples.

Results

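A transcribed interval on chromosome 8 that was markedly lower in lentivirus-treated cells, at the position expected for the hypoxia gene NDRG1, was described together with genes of glycolysis and the hypoxia response: SLC2A1, HK2, ALDOA, PGK1, ENO1, LDHA and CA9. The members were the 5 table rows that lie on chromosome 8 between 127668013 and 127714679 and the rows carrying the protein IDs of those 7 genes. Of the 7 IDs, 6 had a row and ALDOA had none, so there were 11 member rows among 51520 rows of the deposited table. The chromosome 8 interval was selected on its FPKM values in the comparison reported here, in which it was among the largest decreases, so its values are a description without a test. The 7 gene IDs entered by gene identity, although they were proposed as companions of the falling interval.

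The libraries came from COS-1 cells, a line of African green monkey (Chlorocebus sabaeus) kidney cells transformed with simian virus 40 sequences. There were 3 control libraries from cells that received no treatment and 3 libraries from lentivirus-treated cells; what the lentivirus carried is not stated in the labels, although the series title concerns the ERK1/2 scaffold protein SHOC2. Cells of both groups went without serum for 14 h and were then stimulated for 90 min with 2 ng/ml epidermal growth factor. No library of unstimulated cells or of a control virus was part of the comparison. Nothing in the labels says whether replicates were separate cultures or whether the lentivirus-treated cells were 1 clone, and p-values therefore reflect only library-to-library spread, which may be technical. Values are FPKM, which relate the fragments of a feature to its length and to the size of the library. The read depth behind them is unknown, so no counting interval is given. FPKM columns summed to between 2094230 and 2206925, and between 27605 and 27874 rows per library reached 1 FPKM. In bulk RNA, fewer cells expressing a gene and less RNA per cell cannot be told apart.

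Glycolysis splits glucose into pyruvate in the cytosol and yields ATP without oxygen. Glucose enters through transporters such as SLC2A1, is trapped by hexokinases such as HK2, and passes through aldolase (ALDOA), phosphoglycerate kinase (PGK1) and enolase (ENO1) before lactate dehydrogenase (LDHA) turns pyruvate into lactate. Hypoxia-inducible factors raise transcription of many of these genes when oxygen is low, as they do for NDRG1, a cytosolic stress-response protein, and for CA9, a cell-surface carbonic anhydrase that handles acid.

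The table names rows by accession and pairs none with a gene symbol. The RefSeq genes of assembly mChlSab1.0.hap1 shared 0 IDs with it. The pairing of the 7 protein IDs with gene names came with the choice of members. As a check, each of the 6 IDs with a row lay on the chromosome where RefSeq places the gene. No row of the chromosome 8 interval carries a gene name, so NDRG1 is an expected identity from position only; RefSeq lists NDRG1 on chromosome 8 between the protein-coding genes CCN4 and ST3GAL1. Positions are those of the deposited table, whose build and strand no source used here gives.

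The chromosome 8 interval held a long row, ENSP00000404854 (127669718 to 127714679), and a cluster of short rows at its lower-coordinate side. The long row stood at 80.9, 75.9 and 87.7 FPKM in the control libraries and at 30.5, 31.2 and 27.5 FPKM in the lentivirus-treated libraries. Every control library lay above every lentivirus library, with a wide gap between the groups. The group means were 81.5 ± 5.94 and 29.7 ± 1.97 FPKM (SD, n = 3 per group), 63.5% lower after lentivirus.

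JK119356.1 (127668368 to 127669125), a row of 758 bases, stood at 60.2, 64.4 and 69.8 FPKM in control and at 24.2, 25.5 and 26.2 FPKM in lentivirus-treated libraries. Its means differed 2.56-fold. JK117745.1 (127668013 to 127668198), a row of 186 bases, stood at 209.9, 231.3 and 214.6 FPKM in control and at 67.6, 72.2 and 97.1 FPKM in lentivirus-treated libraries. It differed 2.77-fold, and its lentivirus replicate 3 was the highest of its group. In all 3 rows the groups stood apart. Over all tested rows, 16.5% had every lentivirus library below every control library; since the interval was chosen for falling, nothing is read from that comparison. The remaining 2 rows, JK094658.1 (127668013 to 127668165) and JK122684.1 (127668502 to 127668612), each overlap one of the short rows and were under 0.0001 FPKM in all 6 libraries.

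The proportions of the 3 expressed rows to each other varied between libraries, with ranges that overlapped between the groups. JK119356.1 was 0.743 to 0.849 times the level of ENSP00000404854 in control libraries and 0.795 to 0.953 times in lentivirus-treated libraries. The ratio of JK117745.1 to ENSP00000404854 was 2.45 to 3.05 in control and 2.22 to 3.54 in lentivirus-treated libraries. FPKM is scaled by feature length, and values of features as short as JK117745.1 are less certain, so its higher level is not read as more RNA. With all 5 rows summed, the interval went from 364.9 ± 12.02 to 134.0 ± 14.9 FPKM (SD, n = 3), a difference of -1.44 on the log2(FPKM + 1) scale. Rows under 300 bases held 55.3% to 64.4% of the summed FPKM, depending on the library. The rows of at least 300 bases alone gave -1.39.

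**Figure D1:**
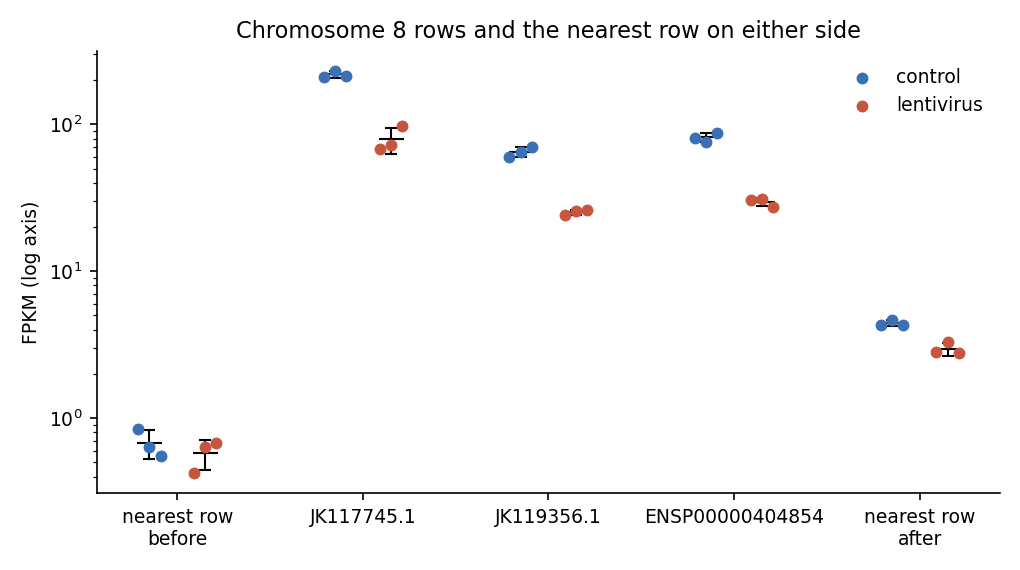
FPKM (log axis) in each library of the 3 expressed rows of the chromosome 8 interval and of the nearest row on either side, with group mean and SD (black, n = 3). The long row sits at 75.9 to 87.7 FPKM in control and 27.5 to 31.2 FPKM in lentivirus-treated libraries, while the nearest row before the interval is under 1 FPKM in every library.

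The rows just outside the interval were expressed far less. The nearest row before it, 10600 bases away (127620733 to 127657413), had overlapping groups, at 0.676 ± 0.149 FPKM in control and 0.578 ± 0.136 FPKM in lentivirus-treated libraries (SD, n = 3). The nearest row after it, 175269 bases away (127889948 to 127906059), stood at 4.32, 4.66 and 4.31 FPKM in control and at 2.80, 3.31 and 2.78 FPKM in lentivirus-treated libraries. It too was lower, with groups that did not overlap, but by 33.1% against 63.5% for ENSP00000404854.

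The surroundings of the interval were mixed. Rows with overlapping positions were summed into loci, because overlapping rows share reads and the division between them is uncertain; 16073 loci averaging 1 FPKM or more were tested. Among the 10 tested loci on each side of the interval (123412226 to 135435907), 10 of 20 had a negative change, with a median of -0.03 log2 and a range of -0.53 to 0.49. In that stretch 3 loci fell and 1 rose by limma at an adjusted p under 0.05, against 19.5% of tested loci called either way over the genome. The 3 that fell lay after the interval (-0.46, -0.53 and -0.34 log2) and the 1 that rose lay before it (0.33 log2). The median change of all 567 tested chromosome 8 loci was -0.09 log2, with 64.7% negative, against a median of -0.01 log2 and 51.1% negative over all tested loci. Within 12 Mb of the long row's start, 5 of 117 other loci were lower by at least 1 log2, the lowest at -1.27. The 3 adjacent loci of the interval, at -1.47, -1.32 and -1.43, were the lowest of that window. They ranked 19, 36 and 24 among 16073 loci from the most negative change. Since the interval was chosen for falling, these ranks only describe it.

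**Figure D2:**
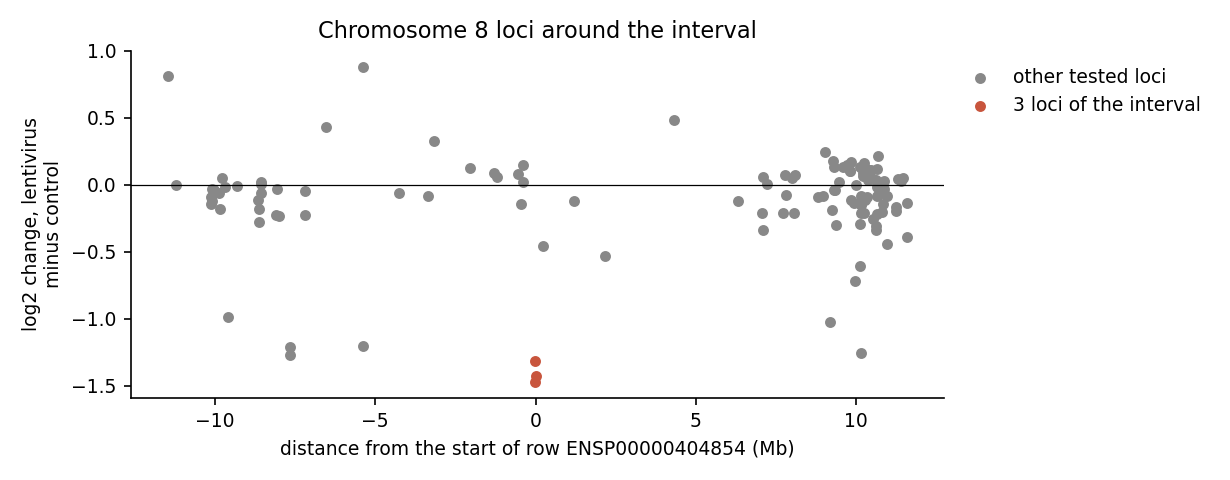
Log2 change (lentivirus minus control, log2(FPKM + 1) scale) of each tested chromosome 8 locus within 12 Mb of the start of row ENSP00000404854, against its distance from that start in Mb. The 3 loci of the interval lie at -1.32 to -1.47, and the other 117 loci within 12 Mb lie between -1.27 and 0.88.

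Elsewhere in the genome, the pattern most like that of the summed interval was sought among 6496 rows that overlap no other row and averaged 5 FPKM or more. Likeness was the mean absolute difference, over the 6 libraries, between log2 values centred on each row's mean. The nearest was ENSP00000320346 (chromosome 26, 39269537 to 39273318), with a mean difference of 0.09 log2. It stood at 14.4, 15.6 and 17.3 FPKM in control and at 5.50, 4.71 and 5.68 FPKM in lentivirus-treated libraries. The next was ENSP00000262776 (chromosome 16, 70942207 to 70947710), with a mean difference of 0.13 log2 and means of 126.9 ± 9.83 and 41.5 ± 1.59 FPKM (SD, n = 3). The files do not give the gene names of these rows.

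Among the glycolysis and hypoxia genes, the loci of HK2, PGK1 and LDHA fell by modest amounts and those of SLC2A1 and ENO1 did not pass the test. The test was limma on log2(FPKM + 1) across the whole table, adjusted by the Benjamini-Hochberg method and called at an adjusted p under 0.05. Over the single rows, 3 of the 6 gene rows averaged 1 FPKM or more and could be tested; 1 fell and 0 rose, where 3.59% of all 28434 tested rows fell and 2.89% rose. Over loci, 5 of the 6 gene loci were tested; 3 fell and 0 rose, where 10.6% of all tested loci fell and 8.88% rose. The median change of the 5 loci was -0.28 log2. In all 3 called loci the lentivirus libraries lay below the control libraries without overlap, as in 21.1% of all tested loci.

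SLC2A1, the glucose transporter GLUT1, showed almost the same level in each library. Its row, ENSP00000416293_1 (chromosome 20, 89975082 to 90006761) stood at 27.1, 24.5 and 26.3 FPKM in control and at 27.1, 26.1 and 25.5 FPKM in lentivirus-treated libraries. The groups overlapped, with a log2 change of 0.02 (95% interval -0.13 to 0.16, limma adjusted p = 0.905). The 4 overlapping rows of the locus, summed, gave 56.2 ± 2.79 and 55.3 ± 1.54 FPKM (SD, n = 3) and a log2 change of -0.02 (95% interval -0.15 to 0.10, limma adjusted p = 0.785).

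HK2, the hexokinase that commits glucose to the cell, fell. Its row, ENSP00000290573_1 (chromosome 14, 32387644 to 32441948) overlaps no other, and stood at 24.5, 23.1 and 23.4 FPKM in control and at 18.7, 18.3 and 17.4 FPKM in lentivirus-treated libraries. The lowest control library lay above the highest lentivirus library. HK2 was 23.4% lower after lentivirus, a log2 change of -0.37 with SE 0.051 (limma adjusted p = 0.0240 over rows and 0.00737 over loci). Over rows the call was lost without any 1 of the 6 libraries (limma adjusted p = 0.0692 to 0.0941, log2 change -0.39 to -0.34), while over loci, with the same values, it was kept in each of those fits.

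For PGK1, the kinase that makes the first ATP of the pathway, the protein-ID row ENSP00000362413_1 (chromosome X, 67072193 to 67093438) was under 0.0001 FPKM in all 6 libraries. The signal of the locus (67072086 to 67093647, 14 rows) stood in JK rows that overlap it, so the row of the gene ID does not show the level of the gene. Summed, the locus stood at 2282, 2226 and 2381 FPKM in control and at 1975, 1867 and 1827 FPKM in lentivirus-treated libraries. It fell by 0.28 on the log2 scale (SE 0.046, limma adjusted p = 0.0111), 17.7% lower, with groups that did not overlap. All 6 tested rows of the PGK1 locus had a negative change, from -0.34 to -0.04 log2. In 5 the lentivirus libraries lay below the control libraries without overlap, as in 16.5% of all tested rows. Only 1, JK089746.1, was called, from 436.5 to 360.2 FPKM (limma adjusted p = 0.0173). Of all tested rows, 3.59% were called lower. Rows of a locus overlap and can share reads, so they are not separate measurements.

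The row of the ENO1 protein ID, ENSP00000234590_1 (chromosome 20, 122889170 to 122902303) was likewise under 0.0001 FPKM in all 6 libraries, and 67 of the 85 rows of its locus had a mean under 0.0001 FPKM. ENO1 encodes alpha-enolase, which acts late in glycolysis. The locus (122885212 to 122902671) summed to 11866, 10571 and 11441 FPKM in control and to 12252, 11380 and 11230 FPKM in lentivirus-treated libraries. The groups overlapped, and the log2 change was 0.04 (95% interval -0.10 to 0.19, limma adjusted p = 0.674). Of 16 tested rows, 11 had a positive and 5 a negative change and 0 were called. Over all tested rows, 3.59% were called lower and 2.89% higher. The most abundant row of the ENO1 locus, JK114209.1, stood at 2299 FPKM in control and 2356 FPKM in lentivirus-treated libraries.

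LDHA, the muscle-type lactate dehydrogenase subunit, gave different results for its single row and for its locus. The row of its protein ID, ENSP00000445175_1 (chromosome 1, 46452554 to 46540441) stood at 26.2, 28.1 and 22.8 FPKM in control and at 21.4, 24.9 and 24.3 FPKM in lentivirus-treated libraries. These groups overlapped, with a log2 change of -0.12 (95% interval -0.37 to 0.13, limma adjusted p = 0.519). That row spans 87888 bases, and RefSeq lists LDHC directly beside LDHA. Whether the row, or the summed locus that contains it, takes in reads of this related neighbour was not tested.

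The 26 overlapping rows of the LDHA locus (46452554 to 46542400) summed to 20785, 21640 and 20859 FPKM in control and to 15582, 17375 and 18207 FPKM in lentivirus-treated libraries. The sum fell by 0.31 on the log2 scale (SE 0.065, limma adjusted p = 0.0234). Rows under 300 bases held 93.0% of it. A single row of 91 bases, JK092238.1, held 67.7%. Its log2 change of -0.30 was not called (limma adjusted p = 0.167). Without control replicate 1, 2 or 3 or lentivirus replicate 2 the LDHA call was lost (limma adjusted p = 0.0624, 0.0631, 0.0700 and 0.0647), with log2 changes of -0.32 to -0.29.

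The longer rows of the LDHA locus gave a smaller SE, under a length cut chosen after the data were seen. That cut left out the rows that held 93.0% of the summed FPKM. The 22 rows of at least 300 bases summed to 1512, 1464 and 1519 FPKM in control and to 1186, 1211 and 1120 FPKM in lentivirus-treated libraries, 21.8% lower (log2 change -0.35, SE 0.040, limma adjusted p = 0.00130). Of the 11 tested rows of the LDHA locus 9 had a negative change, 5 fell and 0 rose, where 3.59% of all tested rows fell and 2.89% rose. The rows of this locus overlap and can share reads, so they are not separate measurements. JK090349.1 (46523453 to 46537606) fell from 619.2 to 483.6 FPKM (limma adjusted p = 0.0251), and JK089424.1 (46534466 to 46542378) fell from 412.4 to 313.4 FPKM (limma adjusted p = 0.0141).

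**Figure D3:**
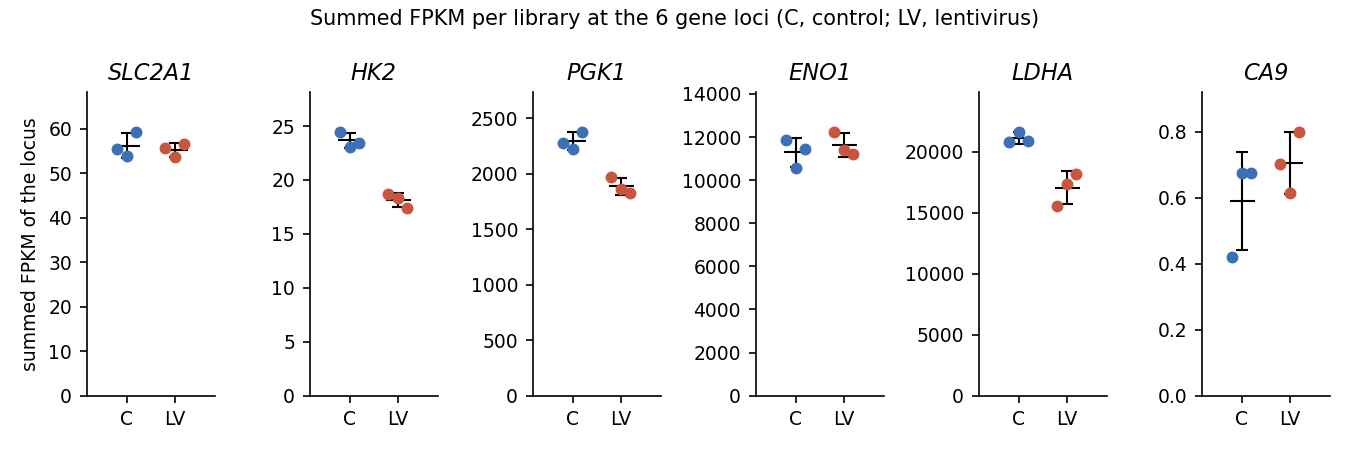
Summed FPKM of each gene locus in every library (points), with group mean and SD (black, n = 3); each panel has its own linear axis from 0. HK2, PGK1 and LDHA have groups that do not overlap, while the groups overlap at SLC2A1, ENO1 and CA9.

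CA9, often used as a marker of hypoxia, stood at a low level, under 1 FPKM in every library. Its only row, ENSP00000367608_1 (chromosome 12, 44921667 to 44928831) stood at 0.419, 0.676 and 0.674 FPKM in control and at 0.703, 0.613 and 0.800 FPKM in lentivirus-treated libraries. The groups overlapped, and the row was not tested because its mean was under 1 FPKM. In control cells its mean was 0.589 FPKM, against 81.5 FPKM for ENSP00000404854 in the chromosome 8 interval.

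**Figure D4:**
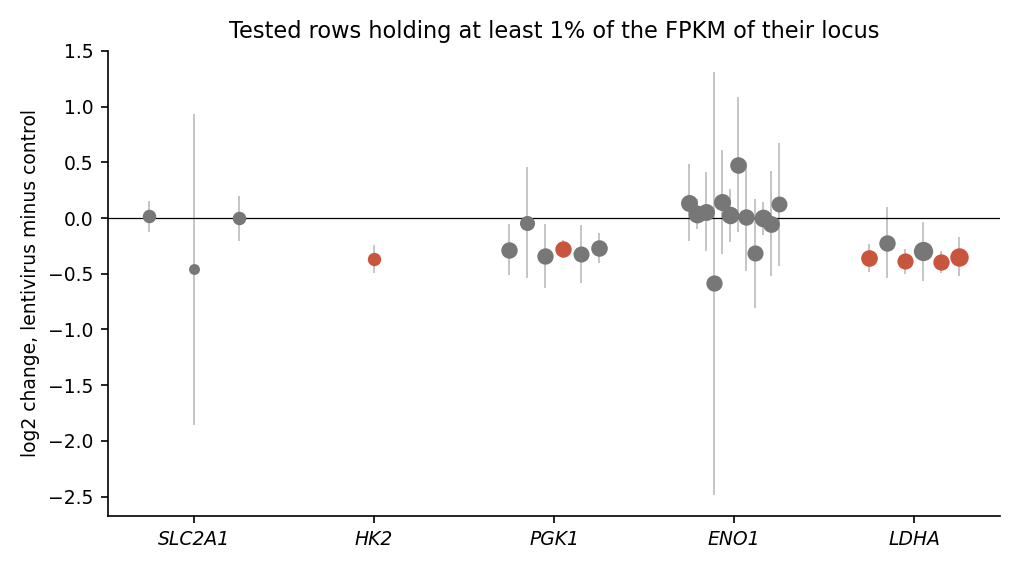
Log2 change (lentivirus minus control, log2(FPKM + 1) scale) of tested rows that hold at least 1% of the FPKM of their locus, in order of position, with 95% limma intervals; larger points have more FPKM and red points have an adjusted p under 0.05. The 6 LDHA rows lie between -0.39 and -0.22 and the 6 PGK1 rows between -0.34 and -0.04, while the 12 ENO1 rows lie on either side of 0.

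In order of level, the control means of the gene loci were 21094 FPKM for LDHA, 11292 for ENO1, 2296 for PGK1, 56.2 for SLC2A1, 23.7 for HK2 and 0.589 for CA9. These neighbours were separated by more than their SD. The order depended on how rows were summed: with rows of at least 300 bases only, LDHA stood at 1498 ± 30.2 FPKM, below PGK1. A sum over overlapping partial transcripts is not the level of 1 transcript. Among the single protein-ID rows, SLC2A1 (26.0 ± 1.33 FPKM), LDHA (25.7 ± 2.69) and HK2 (23.7 ± 0.725; SD, n = 3) were close in control cells: LDHA overlapped with each of the others in its single libraries.

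Members of the pathway were also set against each other within each library, for 4 of the possible pairs of loci. No rule was set for picking these pairs. The log2 ratio of HK2 to SLC2A1 went from -1.21 ± 0.082 in control to -1.56 ± 0.080 in lentivirus-treated libraries (SD, n = 3), a difference of -0.34. That of PGK1 to ENO1 changed by -0.32 and that of LDHA to ENO1 by -0.35. In these 3 pairs the groups did not overlap, which gives the smallest p that an exact 2-sided permutation test of 3 against 3 libraries can reach, 0.10 (0.133 after Benjamini-Hochberg adjustment over the 4 pairs). The ratio of PGK1 to HK2 changed by 0.09 (exact permutation p = 0.20, also 0.20 adjusted). Each of the other 3 pairs set a locus called lower against a locus not called. They use the same libraries as the locus tests and add no separate support.

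Loci near some of the glycolysis genes shifted as well, in directions that differed between chromosomes. These shifts themselves were not tested. The median of the 20 nearest tested loci was taken in each library and compared between groups. This change was 0.19 log2 at SLC2A1 and 0.17 at ENO1, on chromosome 20, where 29.7% of 1149 tested loci were lower. It was -0.10 at HK2, on chromosome 14, where 69.1% of 567 tested loci were lower. It was smaller at LDHA (-0.06) and PGK1 (0.04). On their chromosomes, 1 and X, 55.7% and 52.6% of tested loci were lower, against 51.1% of all tested loci. When that median was subtracted in each library, HK2 and PGK1 stayed called, at -0.27 and -0.32 log2 (limma adjusted p = 0.0245 and 0.0171). LDHA was then at -0.25 and no longer called (limma adjusted p = 0.0628), SLC2A1 was at -0.22 (0.0686) and ENO1 at -0.13 (0.279). The part of the neighbourhood in these results was not tested further. The chromosome 8 interval, at -1.44 log2, was at -1.41 after the same subtraction.

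**Figure D5:**
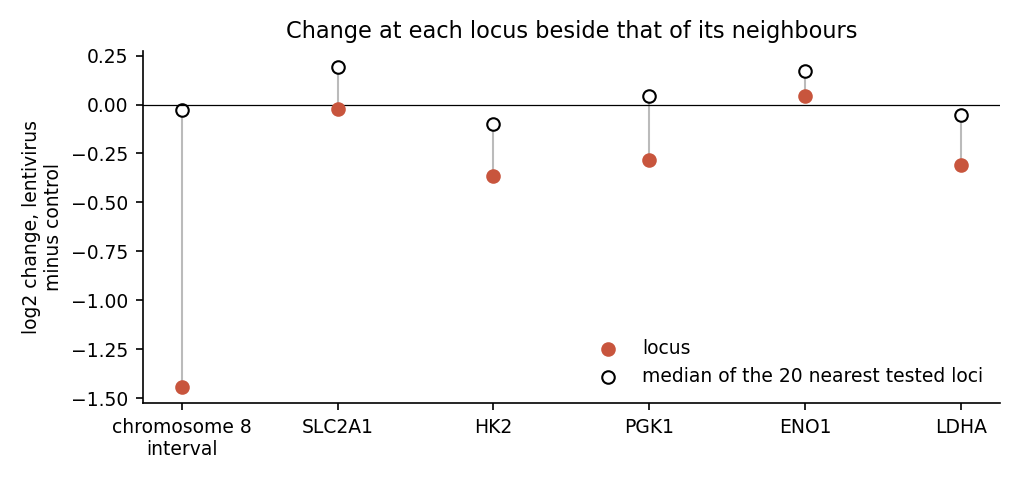
Log2 change (lentivirus minus control, log2(FPKM + 1) scale) of the summed chromosome 8 interval and of 5 gene loci (filled), with the median change of the 20 nearest tested loci (open). For the interval the open point is the median of the changes of those loci. For the gene loci it is the change of the neighbours' median, taken in each library. The interval is at -1.44 beside a neighbourhood at -0.03; SLC2A1 and ENO1 are near 0 beside neighbourhoods at 0.19 and 0.17.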

How the data were processed

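Messenger RNA of 6 COS-1 libraries, 3 per group, was measured as FPKM. The deposited table holds 1 FPKM column per library, made by the authors; per the submitters' processing notes the tools included Cufflinks 2.1.1, Cuffdiff, TopHat2 2.0.10, CASAVA and Bowtie2 2.1.0.0. Their order and settings, and the genome build, are not stated there. No 2 columns were identical.

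Rows with a mean of at least 1 FPKM were tested on log2(FPKM + 1) in R 4.3.3 with limma 3.58.1 (lmFit and trended eBayes), with group as the only term and Benjamini-Hochberg adjustment over all tested rows. Overlapping rows were also summed into 20566 loci, without strand, and tested in the same way. A fold change on this scale understates the change of low rows. The fits were tested on simulated data. Alternatives were other pseudocounts, filters and scalings, a replicate block, and leaving out each library.

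Members and lists were chosen with earlier results of these data known. Every member was named; the 2 rows most like the interval were named by the rule stated beside them. Further pathway genes and cell type markers listed by symbol were not analysed here, since the files pair no row with a symbol, so the cell type was not checked against markers.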

Additional observations from a re-analysis of the deposited data

How the results depend on the processing

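The chromosome 8 interval, at -1.44 log2, ran from -1.53 to -1.38 without any 1 library and moved by less than the spread between libraries under each other pseudocount and scaling. Over the 5 tested gene loci, 3 were called lower, and 2 to 3 without any 1 library. Leaving out rows under 300 bases and subtracting the neighbours' median were chosen after the data were seen. PGK1 and HK2 kept their locus call under all 16 alternatives (limma adjusted p at most 0.0477 and 0.0330), and LDHA lost it under 6. Of the gene rows, 1 was called; summed to loci it was 3, and without any 1 library 0 in each fit. Over all rows 1842 were called, 1220 with no filter and 48 to 108 without 1 library. Whether replicate numbers pair the libraries cannot be decided from 3 libraries per group. Same-numbered libraries deviated together with r = 0.13, -0.03 and 0.003 over rows, and not every library correlated best with its own number. The r of the libraries numbered 1 was the highest between the groups, over rows and over loci (0.077). With the replicate block limma called 0 rows and 0 gene rows (6084 rows at an unadjusted p under 0.05, against 6890), and 2 gene loci, LDHA being lost (limma adjusted p = 0.0509). Signs near 0 turned: without any 1 library SLC2A1's row ran from -0.025 to 0.045 log2, its locus from -0.052 to 0.015 and the ENO1 locus from -0.0049 to 0.078, and the ENO1 locus was at -0.13 after subtracting the neighbours' median. The cause was not tested. On the TPM scale 968 rows rose and 945 fell. Depth is unknown, so the share of spread owed to counting was not estimated.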
